A study of Homo sapiens with 18 samples.

Results

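Cadherins are cell-surface proteins with repeated extracellular domains that bind calcium and hold neighbouring cells together. The genes described here are the cadherins (CDH), the protocadherins (PCDH), the giant Fat and Dachsous cadherins and the seven-pass CELSR receptors, outside chromosomes X and Y. The rule uses gene symbols and no measured value: every probe set of the array with exactly 1 gene symbol, where that symbol was CDH or a PCDH, PCDHA, PCDHB or PCDHG name with a number, FAT1 to FAT4, DCHS1, DCHS2 or CELSR1 to CELSR3. This gave 70 probe sets of 69 genes, out of 19460 probe sets and 18417 genes. There were 21 cadherins, 6 Fat and Dachsous genes, 3 CELSR genes, 10 non-clustered protocadherins, 13 alpha protocadherin probe sets (2 of them for PCDHA2), 16 beta protocadherins and 1 gamma protocadherin, PCDHGB4. No filter on low values was used, so all 70 probe sets stayed in every test. CDH4, CDH13, PCDHA9 and the other gamma genes are not analysed here.

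Classical cadherins link through catenins to the actin cytoskeleton, and N-cadherin (CDH2) is a cadherin described in the adrenal cortex. The alpha, beta and gamma protocadherins lie side by side in a cluster, each with a promoter of its own, and are best known from neurons, where each cell uses a few of them as a surface code. Fat and Dachsous cadherins bind one another across cell borders and, with CELSR proteins, act in planar cell polarity.

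RNA was measured in H295R cells, an established human adrenocortical carcinoma line that makes steroid hormones. The cells stably carried a pcDNA4 plasmid, either empty (control cells) or encoding GRα, the hormone-binding form of the glucocorticoid receptor (GRα cells), and all were grown in Zeocin. After 24 h without serum, both lines received ethanol vehicle, the glucocorticoid dexamethasone (100 nM) or the receptor antagonist RU486 (100 nM) for 6 h. Each of the 6 groups had 3 arrays, except GRα cells with RU486, which had 2 because replicate A failed quality control per the labels. Each genotype was 1 stable line, so an effect of the receptor and any other difference between the lines cannot be told apart. Replicates are named as biological in the labels, with no word on whether they were separate cultures, so a p-value here reflects how these samples scatter, and that scatter may be technical.

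All values below are deposited log2 RMA values, a background-corrected and normalized array signal, and differences are on the same log2 scale. They compare 1 probe set between groups and do not rank genes by RNA amount. A member was called when its Benjamini-Hochberg adjusted p from limma, taken over all 19460 probe sets, was under 0.05. NR3C1, the receptor gene, was 0.59 higher in GRα cells in vehicle (1.50-fold, adjusted p = 1.51e-06), 0.71 higher in dexamethasone and 0.61 higher in RU486. Of 11 adrenocortical marker genes, 7 were lower and 1 was higher in GRα cells in vehicle, and their summed linear signal ran from 6424 to 7141 on control arrays and from 4915 to 5292 on GRα arrays. Only 1 of these 11 lay in the lowest 25% of all probe sets. The summed signal ran from 652.3 to 708.6 on control and from 1074 to 1242 on GRα arrays for 11 chromaffin and neural markers, from 1075 to 1172 and from 1301 to 1469 for 10 fibroblast markers, and from 936.7 to 1014 and from 1067 to 1213 for 11 epithelial markers. It overlapped between the lines for 10 endothelial markers (397.8 to 456.8 and 415 to 468.2), of which 8 lay in the lowest 25%. So did 5 of the chromaffin and neural, 5 of the fibroblast and 4 of the epithelial markers. In vehicle 2 chromaffin and neural markers were called higher and 1 lower, with a median difference of 0.13 and a largest of 2.955. Of the fibroblast markers 3 were higher and 0 lower, and of the epithelial markers 1 and 0 (14.9% and 18.1% of all probe sets). A sum can rest on few genes. The part of these marker shifts in the results was not tested, and fewer cells of a type and less RNA per cell cannot be told apart in bulk samples. GRα vehicle replicate B had the lowest array weight of limma, 0.194 against 0.662 to 2.27 for the other arrays.

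Between the lines, 21 of the 70 member probe sets were called higher and 14 lower in GRα cells in vehicle, beside 33.1% of all probe sets called in either direction (14.9% higher and 18.1% lower). In dexamethasone 24 were higher and 12 lower (33.1% of all probe sets, 15.8% higher and 17.3% lower), and in RU486 15 were higher and 13 lower (29.0%, 13.1% higher and 15.9% lower). Without GRα vehicle replicate B the vehicle counts were 22 and 13. Without control vehicle replicate A, 12 members were higher in vehicle, and without either of the GRα RU486 arrays 9 were higher in RU486. In all 17 fits that left out 1 array, 21 of the 35 called members kept their call in vehicle, 27 of 36 in dexamethasone and 15 of 28 in RU486. The median difference of the members was 0.09 in vehicle, 0.05 in dexamethasone and 0.04 in RU486, against 0.01, -0.02 and -0.01 over all probe sets. The median size of the difference, without its sign, was 0.21 for the members and 0.15 for all probe sets in vehicle.

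The same direction was called in all 3 treatments for 12 members higher and 12 lower in GRα cells (10.1% and 12.0% of all probe sets). A further 19 members were called in 1 or 2 treatments, 27 in none (56.5% of all probe sets), and 0 were called in opposite directions. Without GRα RU486 replicate B, 7 were higher in all 3. For 20 members (10 higher, 10 lower) the values of the 9 control and 8 GRα arrays did not overlap, a pattern that 22.1% of all probe sets showed (9.96% higher and 12.2% lower). For 7 members the difference was larger than 1 in all 3 treatments, which held for 1.85% of all probe sets. These were CDH9, FAT4, PCDH20 and PCDHB4, lower in GRα cells, and PCDHB5, PCDH15 and PCDHB2, higher in GRα cells.

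**Figure D1:**
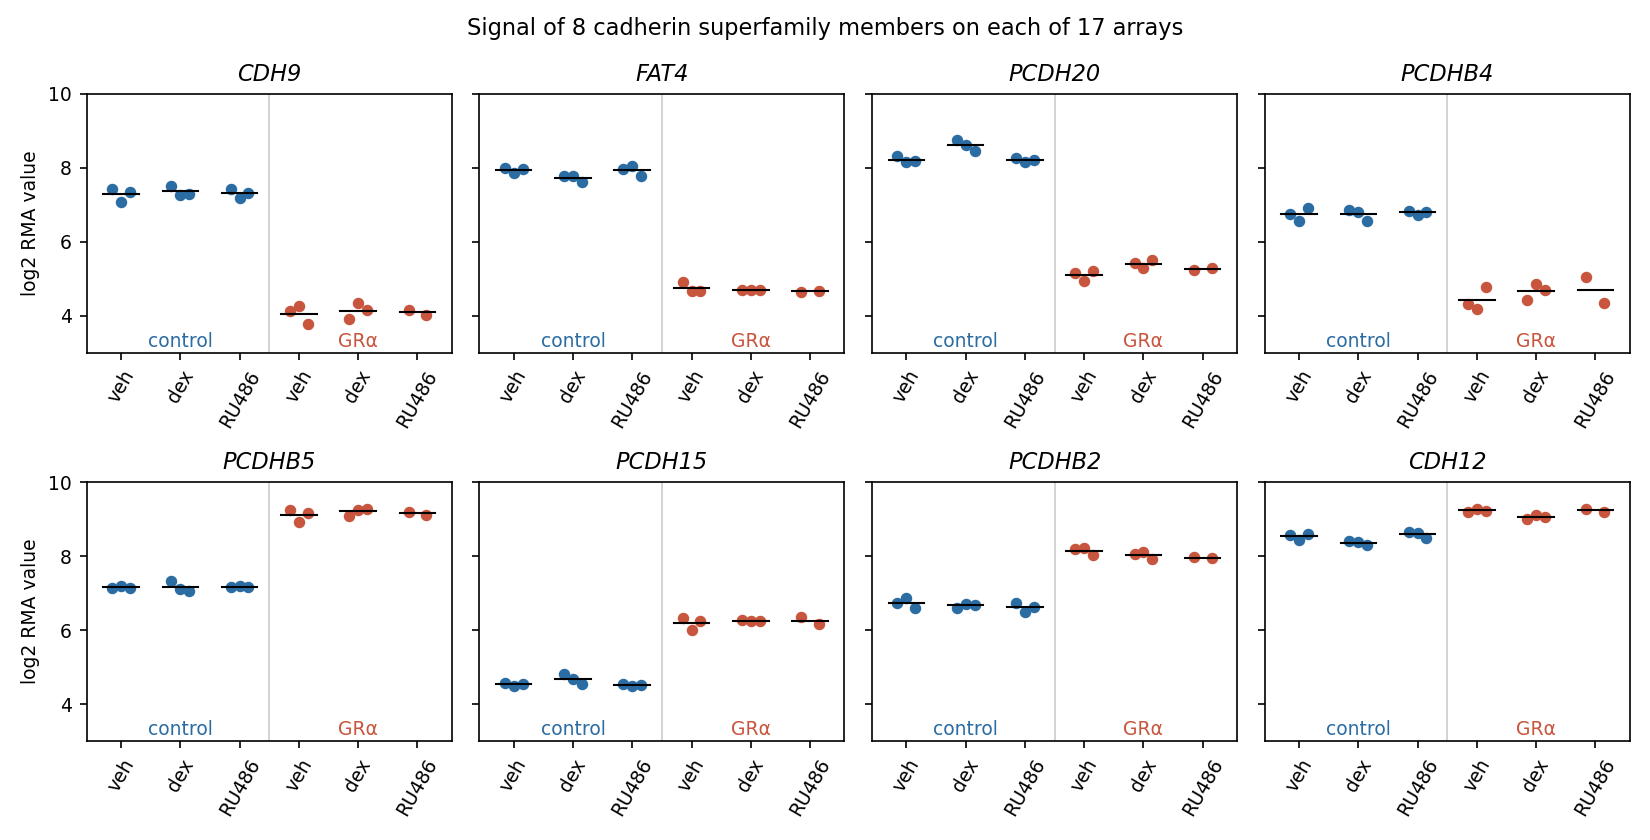
Each point is the log2 RMA value of 1 member on 1 of 17 arrays, grouped by line (control, blue; GRα, red) and treatment (veh, vehicle; dex, dexamethasone), and bars are group means. In all 8 panels the arrays of the lines do not overlap, with CDH9, FAT4, PCDH20 and PCDHB4 lower and PCDHB5, PCDH15, PCDHB2 and CDH12 higher in GRα cells.

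Among the cadherins, CDH9 differed most. CDH9, a type II cadherin known from specific synapses in the brain, read 7.41, 7.06 and 7.34 on the control vehicle arrays and 4.12, 4.25 and 3.76 on the GRα vehicle arrays. It read 7.51, 7.26 and 7.29 in control cells with dexamethasone and 7.42, 7.19 and 7.30 with RU486, against 3.91, 4.33 and 4.15 in GRα cells with dexamethasone and 4.14 and 4.02 with RU486. Every GRα array was more than 2 log2 units under every control array, whatever the treatment. The difference in vehicle was -3.22 (SE 0.128), 9.35-fold lower in GRα cells, with an adjusted p of 4.75e-12, and it was -3.23 in dexamethasone and -3.22 in RU486. All GRα values lay in the lowest 25% of the array (under 5.562), where signal above background was not tested, so 9.35 is a ratio of measured signals and not of RNA amounts.

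CDH12, a related type II cadherin of the brain, went the other way. It read 8.58, 8.44 and 8.60 in control and 9.20, 9.28 and 9.22 in GRα cells in vehicle, 8.41, 8.39 and 8.30 against 8.99, 9.10 and 9.06 in dexamethasone, and 8.64, 8.63 and 8.49 against 9.27 and 9.20 in RU486. The lines did not overlap, and the difference was 0.70 (SE 0.0651), 0.68 and 0.65 in vehicle, dexamethasone and RU486, or 1.62-fold in vehicle (adjusted p = 1.88e-07). CDH9 and CDH12 lie near each other on chromosome 5, together with CDH18 and CDH10. CDH18, also a type II cadherin, was lower in GRα cells in all 3 treatments (-0.36, -0.30 and -0.25), at values of 4.42 to 5.04 that lie in the lowest 25% of the array, while CDH10 was called in none (-0.08 in vehicle, adjusted p = 0.596).

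The other cadherins described here differed less than CDH9 and CDH12. N-cadherin, CDH2, ran from 10.47 to 10.59 (median 10.50) on the 9 control arrays and from 10.01 to 10.29 (median 10.25) on the 8 GRα arrays, so the lines were separate although close. The difference was -0.33 (SE 0.0717, adjusted p = 0.00159) in vehicle, -0.29 in dexamethasone and -0.26 in RU486. P-cadherin, CDH3, was higher in GRα cells by 0.29 (SE 0.0729), 0.32 and 0.23, with control arrays at 5.24 to 5.46 and GRα arrays at 5.53 to 5.74, and kept its RU486 call in 8 of the 17 fits that left out 1 array. CDH11, a type II cadherin of mesenchymal cells and osteoblasts, was higher by 0.34 (SE 0.0715), 0.22 and 0.25, and its arrays overlapped between the lines (6.66 to 7.01 in control and 6.95 to 7.32 in GRα cells). E-cadherin, CDH1, which holds most epithelia together, ran from 4.77 to 5.06 in control and from 4.97 to 5.36 in GRα cells, with a difference of 0.19 in vehicle (95% interval -0.03 to 0.41) that was not called (adjusted p = 0.183). The vascular type II cadherin CDH5 was called in vehicle alone, at 0.28 (adjusted p = 0.046), and kept that call in 7 of the 17 fits that left out 1 array.

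Over the 21 cadherins, 6 were higher and 3 lower in GRα cells in vehicle, 3 and 3 in dexamethasone, and 3 and 3 in RU486. Of all probe sets, 33.1%, 33.1% and 29.0% were called in either direction, in the same order of treatments. The members called in all 3 treatments were CDH12, CDH11 and CDH3, higher, and CDH9, CDH2 and CDH18, lower. In vehicle the other higher cadherins were CDH5, CDH15 (a muscle cadherin, 0.26) and CDH22 (0.38). The highest array of CDH15 and CDH22 was GRα vehicle replicate B, and without it none of these 3 was called, with CDH5 at 0.24 (adjusted p = 0.139), CDH15 at 0.16 (adjusted p = 0.133) and CDH22 at 0.19 (adjusted p = 0.105). The median difference of the family in vehicle was 0.11. For 12 cadherins, CDH1, CDH6, CDH7, CDH8, CDH10, CDH16, CDH17, CDH18, CDH19, CDH20, CDH23 and CDH26, all 6 group means lay in the lowest 25% of all probe sets (under 5.562), and whether their signal was above background was not tested.

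FAT4, a giant cadherin that receives the Dachsous signal, nearly matched CDH9 in the size of its difference. FAT4 read 7.999, 7.85 and 7.95 in control and 4.92, 4.67 and 4.66 in GRα cells in vehicle. In dexamethasone it read 7.77, 7.76 and 7.60 against 4.70, 4.68 and 4.68, and in RU486 7.95, 8.03 and 7.78 against 4.64 and 4.67. All 8 GRα arrays lay between 4.64 and 4.92, under every control array at 7.60 to 8.03. The difference was -3.18 (SE 0.0809) in vehicle, 9.08-fold lower with an adjusted p of 1.65e-14, -3.03 in dexamethasone and -3.26 in RU486. As for CDH9, the GRα values lay in the lowest 25% of the array, and the fold is one of measured signals.

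DCHS1, the ligand of FAT4, was higher in GRα cells. Its values ran from 6.09 to 6.47 (median 6.31) on control arrays and from 6.51 to 6.83 (median 6.67) on GRα arrays, without overlap. The difference was 0.33 (SE 0.0927, adjusted p = 0.0114), 0.31 and 0.46 in vehicle, dexamethasone and RU486, and the vehicle call was lost without control vehicle replicate A (0.23, adjusted p = 0.081). FAT1, which acts at cell contacts and on actin, was also higher, by 0.29 (SE 0.0801), 0.37 and 0.29, with arrays at 9.95 to 10.06 in control and 10.09 to 10.46 in GRα cells. Its vehicle call held in 16 of the 17 fits that left out 1 array and was lost without GRα vehicle replicate A (0.23, adjusted p = 0.056). It was also lost when only the control and GRα vehicle arrays were fitted (0.29, adjusted p = 0.08). FAT2, FAT3 and DCHS2 lay in the lowest 25% of the array in all 6 groups and were called in 0 of 3 treatments, with differences of 0.14, 0.01 and 0.04 in vehicle.

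Of the CELSR receptors, CELSR3, which guides axons, was higher in GRα cells in all 3 treatments. Its control arrays ran from 7.78 to 7.97 (median 7.86) and its GRα arrays from 7.82 to 8.35 (median 8.29), with an overlap at the low end. The differences were 0.28 (SE 0.0953, adjusted p = 0.0327), 0.44 and 0.38, and the vehicle call held in 12 of the 17 fits that left out 1 array, with adjusted p up to 0.165. Without GRα vehicle replicate B, its lowest GRα array, the vehicle difference was 0.43. CELSR1 differed by 0.03 and CELSR2 by -0.21 in vehicle, and neither was called (adjusted p = 0.879 and 0.0733). The CELSR2 difference turned on single arrays: it was -0.31 and called without GRα vehicle replicate A (adjusted p = 0.00818), and -0.07 without GRα vehicle replicate B (adjusted p = 0.356), which read 6.93 against 7.41 and 7.28 on the other GRα vehicle arrays. After median centring it was called at -0.24 (adjusted p = 0.0497).

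Among the non-clustered protocadherins, which have promoters scattered over the genome, PCDH20 stood furthest apart. PCDH20, a gene often described as silenced in tumours, read 8.32, 8.16 and 8.17 in control and 5.14, 4.94 and 5.20 in GRα cells in vehicle. The difference was -3.12 (SE 0.0836), 8.71-fold lower in GRα cells with an adjusted p of 3.46e-14, -3.21 in dexamethasone and -2.94 in RU486. Its GRα values also lay in the lowest 25% of the array. PCDH15, which forms the tip links of inner-ear hair cells with CDH23, read 4.57, 4.49 and 4.53 in control and 6.32, 6.01 and 6.26 in GRα cells in vehicle. In dexamethasone it read 4.80, 4.69 and 4.55 against 6.27, 6.25 and 6.23, and in RU486 4.55, 4.49 and 4.52 against 6.34 and 6.17. The control values lay in the lowest 25% of the array and the GRα values above it. The difference was 1.66 (SE 0.0804), 3.16-fold in vehicle with an adjusted p of 5.89e-11, 1.57 in dexamethasone and 1.74 in RU486.

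PCDH10, a delta-type protocadherin, was lower in GRα cells, with differences of -0.24 (SE 0.0716), -0.30 and -0.30, and with arrays of 5.63 to 5.86 in control and 5.31 to 5.62 in GRα cells. Its vehicle call was lost without control vehicle replicate A (-0.22, adjusted p = 0.0589) and without GRα vehicle replicate C (-0.21, adjusted p = 0.0534). PCDH12, a protocadherin of endothelial cells, was called in RU486 alone (0.34, adjusted p = 0.0129). The other 6 non-clustered protocadherins, PCDH1, PCDH7, PCDH8, PCDH9, PCDH17 and PCDH18, were called in no treatment, and their differences in vehicle lay between -0.17 and 0.17. Without GRα vehicle replicate B, PCDH1 was called lower in vehicle (-0.23, adjusted p = 0.031).

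**Figure D2:**
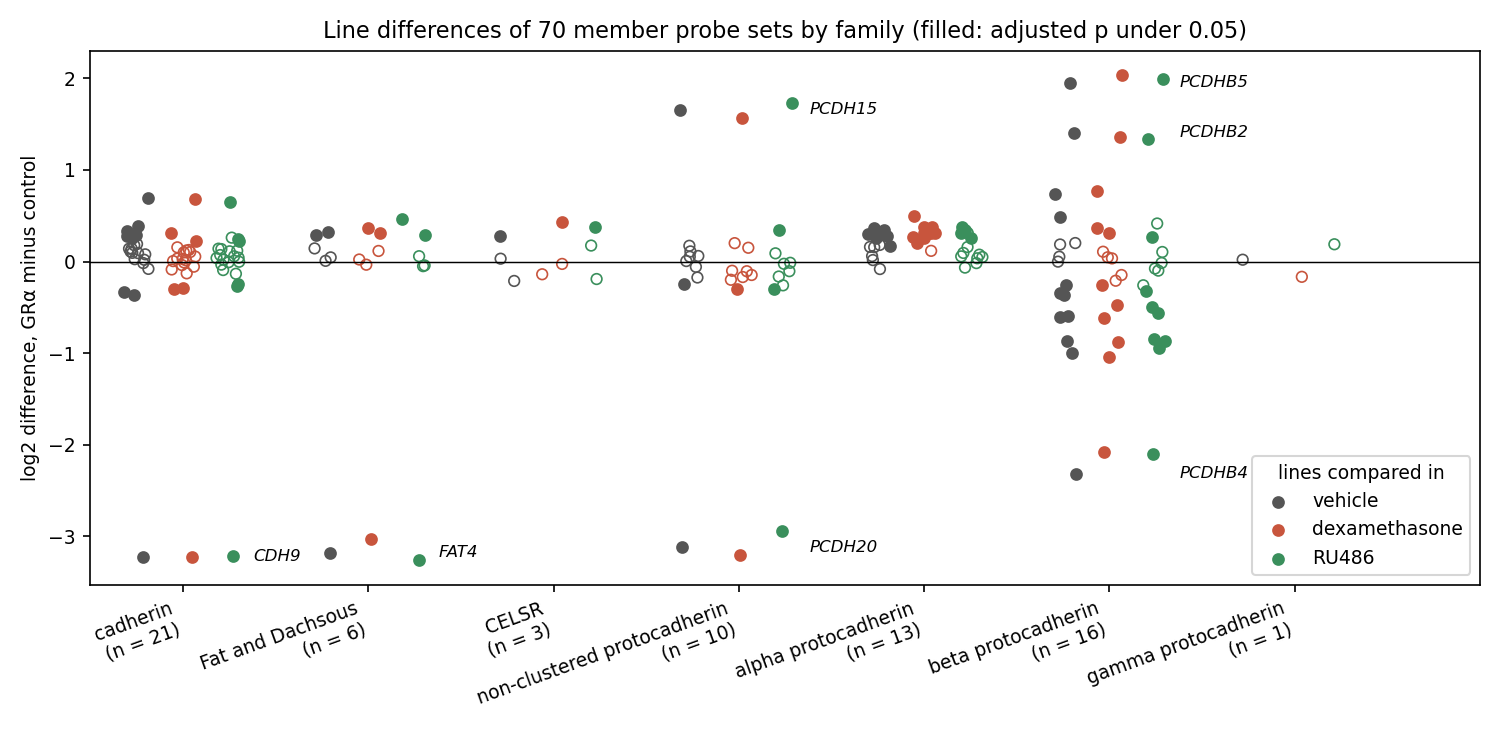
Each point is the log2 difference, GRα minus control, of 1 of 70 member probe sets, by family (horizontal axis, number of probe sets in brackets) and by the treatment in which the lines were compared, and filled points have an adjusted p under 0.05. Alpha protocadherins sit between -0.08 and 0.50, while beta protocadherins spread from -2.32 to 2.04.

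The genes next to CDH9, FAT4, PCDH20, PCDH15 and CDH12, which had the largest differences in vehicle outside the clustered protocadherins, were read from the RefSeq gene order, with 5 measured genes on each side. Of all probe sets, 10.1% were called higher and 12.0% lower in all 3 treatments, so 1 to 3 of 10 neighbours is near that background. Around PCDH20, 4 of 10 neighbours were called lower in all 3 treatments, namely TDRD3 (-1.10 in vehicle), BORA (-0.91), DACH1 (-0.80) and DIAPH3 (-0.55), and 0 were higher. The protocadherins PCDH8, PCDH17 and PCDH9 are among those neighbours and were called in no treatment. Around FAT4, 0 neighbours were higher and 2 were lower, HSPA4L (-0.86) and MFSD8 (-0.38). Around PCDH15, 2 were higher and 1 was lower, around CDH9 1 and 2, and around CDH12 0 and 3. The neighbours of CDH9 and of CDH12 are partly the same genes. The higher neighbour of CDH9 was CDH12 itself, and the lower neighbours of CDH12 included the members CDH9 and CDH18. The difference of PCDH20, FAT4 and CDH9 was larger in size than that of each of their own neighbours counted. These members were chosen for their large differences, so that outcome was close to settled in advance.

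The 16 beta protocadherins of the chromosome 5 cluster, each encoded by 1 exon behind its own promoter, were split between the lines: 4 were higher and 8 lower in GRα cells in vehicle, 5 and 6 in dexamethasone, and 3 and 7 in RU486. The shares of all probe sets called in either direction were 33.1%, 33.1% and 29.0%. PCDHB2 and PCDHB5 were higher in all 3 treatments, and PCDHB1, PCDHB4, PCDHB7, PCDHB9, PCDHB13 and PCDHB16 were lower in all 3. The median size of the beta differences in vehicle was 0.54, against 0.15 over all probe sets.

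PCDHB5 read 7.13, 7.20 and 7.14 in control and 9.24, 8.93 and 9.15 in GRα cells in vehicle, 7.34, 7.12 and 7.05 against 9.09, 9.25 and 9.28 in dexamethasone, and 7.15, 7.19 and 7.17 against 9.19 and 9.12 in RU486. The lines were far apart in each treatment, with a difference of 1.95 (SE 0.0852), 3.86-fold and an adjusted p of 1.6e-11 in vehicle, 2.04 in dexamethasone and 1.99 in RU486. PCDHB4, the gene just before it, went the opposite way. PCDHB4 read 6.74, 6.57 and 6.91 in control and 4.32, 4.17 and 4.77 in GRα cells in vehicle, 6.86, 6.79 and 6.56 against 4.42, 4.84 and 4.69 in dexamethasone, and 6.83, 6.72 and 6.81 against 5.03 and 4.35 in RU486. The difference was -2.32 (SE 0.166), 4.99-fold lower with an adjusted p of 6.95e-09, -2.08 in dexamethasone and -2.10 in RU486. The GRα arrays of PCDHB4 ran from 4.17 to 5.03 and its control arrays from 6.56 to 6.91, so that again the lower line lay in the lowest 25% of the array.

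PCDHB2 read 6.74, 6.87 and 6.60 in control and 8.20, 8.21 and 8.02 in GRα cells in vehicle. All GRα arrays, from 7.91 to 8.21, were above all control arrays, from 6.50 to 6.87, and the differences were 1.41 (SE 0.082; 2.65-fold, adjusted p = 5.86e-10), 1.36 and 1.34. PCDHB1 read 5.81, 5.80 and 5.75 against 4.99, 4.48 and 4.90 in vehicle, and its differences were -0.997 (SE 0.132), -1.04 and -0.94. PCDHB7 read 7.09, 6.75 and 6.75 against 6.12, 5.81 and 6.05, with differences of -0.87 (SE 0.114), -0.88 and -0.87. The arrays of the lines did not overlap for PCDHB1 or PCDHB7 in any treatment, and the GRα values of PCDHB1 lay in the lowest 25% of the array.

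The differences of PCDHB13 were -0.59, -0.62 and -0.84, and those of PCDHB9 were -0.60, -0.47 and -0.56. Those of PCDHB16 were -0.34, -0.25 and -0.33, with a lowest control array at 8.15 and a highest GRα array at 8.16, and the dexamethasone call held in 4 of the 17 fits that left out 1 array. PCDHB3, next to PCDHB2, was higher in vehicle (0.74) and dexamethasone (0.78), and its difference in RU486 was 0.42 (adjusted p = 0.0918), with all 6 group means in the lowest 25% of the array. PCDHB8 was called higher in vehicle alone (0.49, against 0.03 in dexamethasone and -0.02 in RU486). PCDHB10 was higher in dexamethasone (0.36) and RU486 (0.26), PCDHB11 in dexamethasone (0.32), PCDHB12 lower in vehicle (-0.25) and PCDHB14 lower in vehicle (-0.36) and RU486 (-0.50). Without GRα vehicle replicate B the vehicle differences of PCDHB12 and PCDHB14 were not called (-0.18 and -0.23, adjusted p = 0.131 and 0.0554), and that of PCDHB16 was -0.21 (adjusted p = 0.0439). Those of PCDHB10 and PCDHB11 were called without that array (0.26 and 0.32, adjusted p = 0.0198 and 0.0108). PCDHB6 and PCDHB15 were called in no treatment. Beta protocadherins have similar sequences, and whether probes of one gene also bind RNA of another was not tested.

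**Figure D3:**
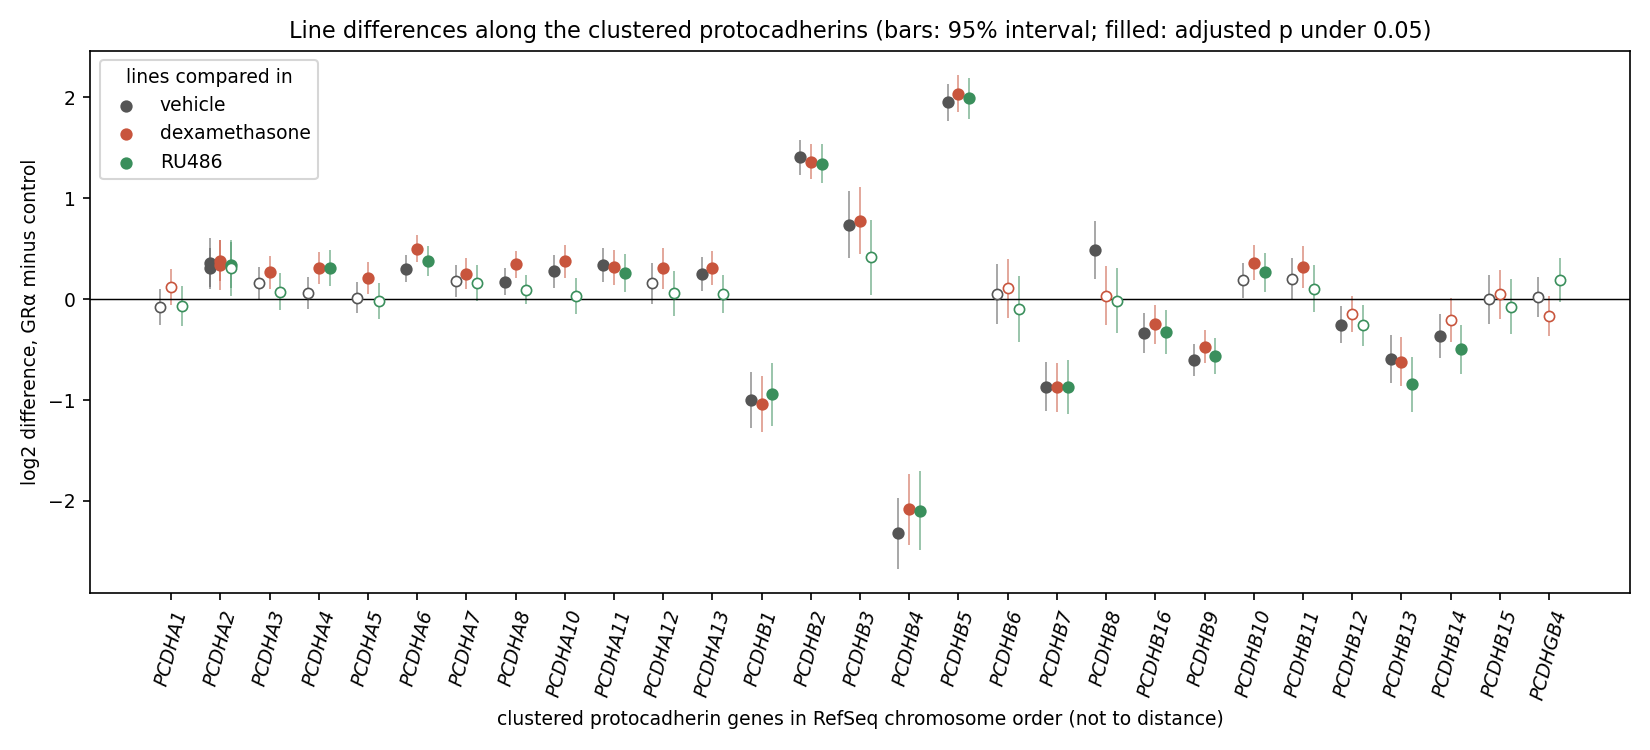
Points are log2 differences, GRα minus control, of the clustered protocadherins in RefSeq chromosome order (equal spacing, not distance), with 95% intervals of the fit as bars, and filled points have an adjusted p under 0.05. Neighbours PCDHB4 (-2.32 in vehicle) and PCDHB5 (1.95) lie at the opposite ends of the range.

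The promoters of the beta genes that differed in all 3 treatments are shown to compare the higher and the lower genes at the same place. Clustered protocadherin promoters are known for a shared sequence element that the insulator protein CTCF can bind. In 300-base windows of RefSeq (250 bases before to 50 after a gene's start, GRCh38.p14), 14 of the 16 beta genes were matched, and 13 of the 14 held the 9 letters GGTGGCGCT on the gene's own strand. Both strands were searched, and the letters were chosen after the sequences had been seen, so the count is a description. The same letters stood in 0 of the windows of the other members matched (10 alpha, 1 gamma, 11 cadherin, 3 Fat and Dachsous, 2 CELSR and 8 non-clustered) and in 169 of 27305 genes, 0.619%. Capitals mark the 9 letters in the 41-base stretches below, all on the plus strand of chromosome 5 and upstream of the gene start. The first pair was higher in GRα cells and the others lower.
PCDHB2: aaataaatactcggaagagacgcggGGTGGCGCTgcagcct
PCDHB5: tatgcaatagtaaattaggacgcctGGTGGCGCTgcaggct
PCDHB4: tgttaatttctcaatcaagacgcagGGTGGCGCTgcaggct
PCDHB7: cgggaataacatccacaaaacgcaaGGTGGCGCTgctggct
PCDHB16: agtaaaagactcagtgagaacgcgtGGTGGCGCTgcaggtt
PCDHB9: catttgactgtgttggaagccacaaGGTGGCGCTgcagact
PCDHB13: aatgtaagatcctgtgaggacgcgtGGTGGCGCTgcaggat
PCDHB1: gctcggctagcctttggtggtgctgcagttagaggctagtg
The stretches lie at chr5:141094530-141094570 for PCDHB2, chr5:141135165-141135205 for PCDHB5, chr5:141121709-141121749 for PCDHB4, chr5:141172552-141172592 for PCDHB7, chr5:141182296-141182336 for PCDHB16, chr5:141187060-141187100 for PCDHB9, chr5:141213851-141213891 for PCDHB13 and chr5:141051333-141051373 for PCDHB1.

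PCDHB5 and PCDHB4, with opposite line differences, shared 30 of the 41 positions, the 7 bases after the 9 letters included. The stretches were aligned on the 9 letters, so these are shared by construction and are part of every count here. PCDHB2 shared 26 positions with PCDHB5, PCDHB13 30, PCDHB16 29, PCDHB9 24 and PCDHB7 23. In likeness to PCDHB5, PCDHB2, also higher in GRα cells, thus fell within the 23 to 30 positions of the lower genes. The end of the 9 letters lay 7 bases before the gene start in PCDHB5 and 34 to 75 bases before it in the other 6 genes that hold them. PCDHB1 had no exact match. Its nearest stretch, 17 bases before the gene start, differed by C6T, counted from 1 at the 5′ end of the 9 letters, and 14.5% of all windows held a match within 1 letter. A match says that these letters are in the window and not that a protein binds there.

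The alpha protocadherins differed less and all called differences had 1 direction. Of 13 probe sets, 7 were called higher in GRα cells in vehicle, 12 in dexamethasone and 4 in RU486, and 0 were called lower in any. The shares of all probe sets called higher were 14.9%, 15.8% and 13.1%. The median difference of the 13 was 0.18, 0.31 and 0.09 in the same order. PCDHA6 was higher by 0.30 (SE 0.0634, adjusted p = 0.00126), 0.50 and 0.38, with control arrays at 7.82 to 8.01 and GRα arrays at 8.16 to 8.42. PCDHA11 was higher by 0.34 (SE 0.0803), 0.31 and 0.26, with control arrays at 7.92 to 8.19 and GRα arrays at 8.26 to 8.52. These and 1 of the PCDHA2 probe sets were the 3 called in all 3 treatments, while the other PCDHA2 probe set was called in vehicle (0.36) and dexamethasone (0.34) and had 0.31 in RU486 (adjusted p = 0.0894). PCDHA1 was called in no treatment. Without GRα vehicle replicate B, PCDHA12 (0.27, adjusted p = 0.027) and PCDHA7 (0.24, adjusted p = 0.0219) were also called higher in vehicle. Alpha transcripts share their last exons, and whether the alpha probe sets share signal from them was not tested, so the 13 values may not be separate measurements. PCDHGB4 was called in no treatment, with differences of 0.02, -0.17 and 0.19.

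Genes that act with cadherins inside the cell were read from lists of known partners, beside 14.9% of all probe sets called higher and 18.1% lower in vehicle, and 10.1% and 12.0% in all 3 treatments. Of 20 measured catenins and junction linkers, 6 were higher and 5 lower in GRα cells in vehicle, with 5 higher and 2 lower in all 3 treatments. ABLIM1, an actin-binding protein, was higher by 1.43 and CTNNA2, the neuronal alpha-catenin, by 0.75, while the cell-contact receptor NECTIN3 (-0.96) and alpha-catenin CTNNA1 (-0.37) were lower. Beta-catenin CTNNB1, the direct partner of classical cadherins, had -0.12 (adjusted p = 0.117). Of 13 cadherin repressors and regulators of the epithelial-mesenchymal transition, 1 was higher in vehicle, TCF4 (0.92), and 0 were lower. SNAI1, SNAI2, ZEB1 and ZEB2, which are among the known repressors of CDH1, had 0.22, 0.19, -0.05 and 0.02 in vehicle and were not called there. In dexamethasone 2 of the 13 were higher and 2 lower (15.8% and 17.3% of all probe sets). In RU486 1 was higher and 0 were lower (13.1% and 15.9%).

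Against the same shares of 14.9% higher and 18.1% lower, 16 enzymes that cut or mature cadherins had 6 higher and 2 lower in vehicle. In all 3 treatments 5 were higher and 2 lower (10.1% and 12.0% of all probe sets), and the lowest difference in vehicle was -0.47. ADAM10, the protease that sheds the outer part of several cadherins and protocadherins, was higher by 1.07 and APH1B, a gamma-secretase subunit, by 0.66. Of 28 partners of Fat, Dachsous and planar polarity proteins, 10 were higher and 7 lower, with LIX1 at 1.60, PRICKLE1 at 0.86 and FZD3 at 0.65, the latter pair being core planar polarity proteins. FRMD6, a protein of the Hippo pathway, was lower (-0.42). Of 15 other genes with cadherin domains, 4 were higher and 3 lower, with CDHR1 at 1.31 and CLSTN2 at 0.92. The lowest difference of these 15 in vehicle was -0.45, and 3 were higher and 3 lower in all 3 treatments. Of 20 genes known to regulate clustered protocadherins, 0 were higher and 6 were lower in vehicle, with 3 lower in all 3 treatments, beside 18.1% and 12.0% of all probe sets. The corepressor TRIM28 (-0.87) and the cohesin regulator PDS5B (-0.66) were lower, while CTCF itself had -0.04 (adjusted p = 0.669) and the cohesin subunit RAD21 had -0.03 (adjusted p = 0.772). The median of these lists in vehicle ran from -0.08, for the clustered protocadherin regulators, to 0.17, for the processing enzymes and the other cadherin-domain genes, against 0.01 over all probe sets.

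**Figure D4:**
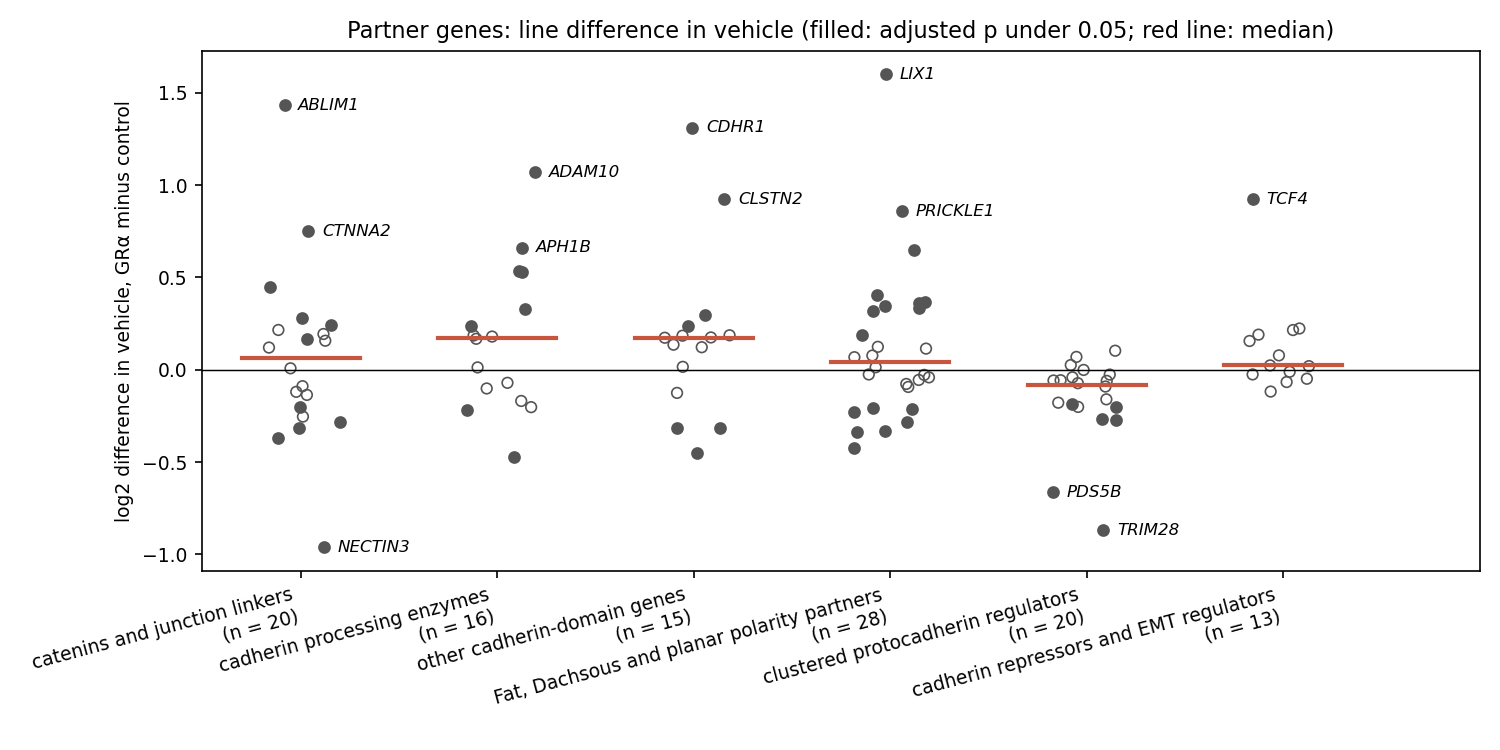
Each point is the log2 difference, GRα minus control, in vehicle of 1 gene of the 6 partner lists (number of genes in brackets), filled points have an adjusted p under 0.05, and red lines are list medians. LIX1 (1.60) and ABLIM1 (1.43) are highest, and NECTIN3 (-0.96) and TRIM28 (-0.87) are lowest.

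Within 6 h the ligand differences of the members were about as small in median size as those of all probe sets. For dexamethasone against vehicle the median size was 0.07 for members and 0.09 for all probe sets in GRα cells, and 0.06 for both in control cells. For RU486 against vehicle it was 0.09 and 0.08 in GRα cells, and 0.045 and 0.057 in control cells. With dexamethasone against vehicle, limma called 0 of 70 members in GRα cells, where 1.95% of all probe sets were called, and 0 in control cells, where 0.252% were. At an unadjusted p under 0.05 there were 7 of 70 members in GRα cells and 5 in control cells, beside 3002 and 947 of all 19460 probe sets. The differences of the members lay between -0.27 and 0.30 in GRα cells and between -0.22 and 0.38 in control cells, and their 95% intervals reached from -0.52 to 0.58 and from -0.43 to 0.56. RU486 against vehicle gave 0 called members and 0% of all probe sets in either line. At an unadjusted p under 0.05 it gave 5 members in GRα cells and 1 in control cells, beside 1689 and 673 of all 19460 probe sets. A missed call does not show that a gene was the same with and without ligand.

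PCDH20 had the largest dexamethasone difference of the members in both lines, although it was not called. It read 8.73, 8.61 and 8.45 with dexamethasone, 8.32, 8.16 and 8.17 with vehicle and 8.25, 8.16 and 8.19 with RU486 in control cells. It read 5.41, 5.27 and 5.49 with dexamethasone, 5.14, 4.94 and 5.20 with vehicle and 5.24 and 5.28 with RU486 in GRα cells. The 3 control dexamethasone arrays lay above all other control arrays, and in GRα cells 1 dexamethasone array lay within the range of the RU486 arrays. Dexamethasone minus vehicle was 0.38 (SE 0.0836, adjusted p = 0.0901) in control and 0.30 (SE 0.0836, adjusted p = 0.0881) in GRα cells. The difference between the lines in that effect was -0.09 (95% interval -0.34 to 0.16, adjusted p = 0.887).

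Dexamethasone against RU486 called 1 member in control cells (0.365% of all probe sets, 0.277% higher and 0.0874% lower), which was PCDH20, higher with dexamethasone by 0.40 (SE 0.0836, 1.32-fold, adjusted p = 0.0492). That call held in 4 of the 17 fits that left out 1 array, with adjusted p from 0.0194 to 0.273, and among the fits that lost it were those without any 1 of the 3 control RU486 arrays and without control dexamethasone replicate A or B. In GRα cells, 0 members were called (0.822% of all probe sets), 6 had an unadjusted p under 0.05 (1715 of all 19460 probe sets), and the PCDH20 difference was 0.13. The comparisons with dexamethasone of a line share their dexamethasone arrays. PCDHGB4 had the lowest p of the members in GRα cells, at -0.42 for dexamethasone minus RU486 (SE 0.103, adjusted p = 0.0763).

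**Figure D5:**
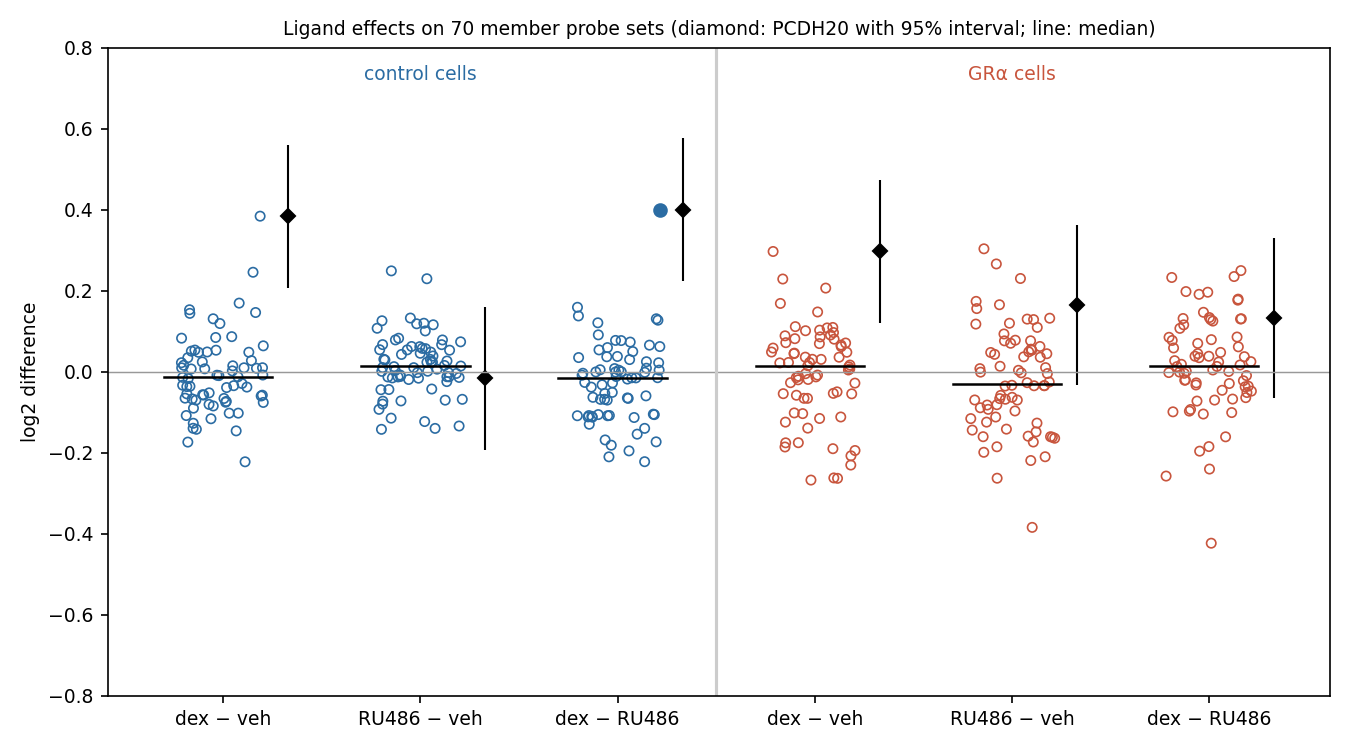
Circles are log2 differences between treatments of the 70 member probe sets in control (blue) and GRα (red) cells, horizontal bars are medians, the filled circle has an adjusted p under 0.05, and diamonds repeat PCDH20 with its 95% interval. PCDH20 lies at 0.38 and 0.40 in the dexamethasone comparisons of control cells.

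CDH12, CDH11, FAT4 and PCDHGB4 were among the members with an unadjusted p under 0.05 in more than 1 of these comparisons and were not called. PCDHGB4 was at -0.27 in GRα cells with dexamethasone against vehicle (adjusted p = 0.175). CDH12 was at -0.17 in control cells and -0.19 in GRα cells with dexamethasone against vehicle (adjusted p = 0.805 and 0.18). CDH11 was at -0.23 in GRα cells (adjusted p = 0.122), and FAT4 at -0.22 in control cells (adjusted p = 0.753). The effect of dexamethasone was called different between the lines for 0 of 70 members (0.0617% of all probe sets), and that of RU486 for 0 (0% of all probe sets). At an unadjusted p under 0.05 there were 4 members for each, beside 1453 of all 19460 probe sets for dexamethasone and 822 for RU486. Of the partner genes, 4 were called with dexamethasone in GRα cells, all higher, where 1.95% of all probe sets were called. Of 20 catenins and junction linkers these were VCL, or vinculin (1.08, adjusted p = 5.58e-07), and ABLIM1 (0.84). Of 13 repressors and regulators it was the CDH1 repressor ZEB2 (0.37), and of 28 Fat, Dachsous and polarity partners FRMD6 (0.27). The processing enzymes, other cadherin-domain genes and protocadherin regulators had 0. For dexamethasone against RU486, 2 catenins or linkers and 1 repressor or regulator were called higher in GRα cells (0.822% of all probe sets). In control cells 1 catenin or linker and 1 Fat, Dachsous or polarity partner were called higher (0.365% of all probe sets). The dexamethasone effect was called higher in GRα than in control cells for 1 catenin or linker (adjusted p = 0.0243, 0.0617% of all probe sets). CDH1 had -0.03 in GRα cells for dexamethasone against vehicle (adjusted p = 0.931). Its signal lay in the lowest 25% of the array in every group (highest group mean 5.196, under 5.562). Signal above background was not tested there, so a fall of CDH1 could have been missed. No effect of ZEB2 on CDH1 can be read from this value.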

How the data were processed

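RNA of 17 arrays was used, from H295R control and GRα cells treated with vehicle, dexamethasone or RU486. The deposited values are log2 values of 29153 probe sets that the authors made with RMA, per the submitters' processing notes, which also name limma. Their versions and a genome build were not given in the sources used here. RMA includes quantile normalization, which hides any change that most RNAs share. Array medians lay between 6.28 and 6.35. Platform symbols were checked against a RefSeq gene table, and the 1754 probe sets with several symbols and 7939 with none were not tested.

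From these values, 1 limma fit (version 3.58.1, R 4.3.3) over 17 arrays with a mean per group, 11 residual and 5.76 prior degrees of freedom gave 11 two-sided contrasts: the line difference in each of 3 treatments, 6 contrasts between treatments within a line, and the difference between the lines in each of the ligand effects. The p-values were adjusted by Benjamini-Hochberg over 19460 probe sets, and errors are standard errors (SE) of the fit. The number of arrays limits the precision. The script was tested on simulated data.

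Members and lists were chosen with earlier results of these data known. Named were the Fat, Dachsous and CELSR genes, CDH1, CDH2, CDH3, CDH5 and CDH11, up to 10 members in each direction with the largest differences called in all 3 treatments without overlap between the lines, members called for a ligand, and up to 4 called genes of each partner list. CDH4 and CDH13 are in that rule and had no probe set of their own. Other members, partner genes and neighbours are named where a count or a description needed them, after their values were seen. Alternatives were quantile normalization again, median centring, other variance settings, array weights, a replicate block, other probe set filters, only the groups compared, a threshold of 0.01 and leaving out each array. Promoter windows came from RefSeq (GRCh38.p14).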

Additional observations from a re-analysis of the deposited data

How the results depend on the processing

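Of 23 called differences of named members (between the lines in vehicle, and 1 between ligands), 17 kept direction and call in each of the 26 or 27 alternatives run for them, CDH9, FAT4, PCDH20, PCDHB4, PCDHB5, PCDHB2, PCDH15 and CDH12 among them. The 0.01 threshold was applied to counts only, and the filter on the lowest 25% left out PCDH15, CDH3 and PCDHB1. With only the groups compared, 13 members were higher in vehicle, and at adjusted p under 0.01 there were 11 in vehicle, 6 in RU486 and 5 in all 3 treatments. The dexamethasone against RU486 call of PCDH20 in control cells gave a count of 0 with all probe sets, median centring, robust variance, only the groups compared and the 0.01 threshold. PCDH20 was called for dexamethasone against vehicle in both lines after quantile normalization again (0.31 in GRα and 0.41 in control cells, 1 member in each) and with array weights in control cells (1 member, 0.39), and PCDHGB4 for dexamethasone against RU486 in GRα cells with a variance trend (1 member, -0.42, adjusted p = 0.0324).

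Leaving out 1 array at a time gave 12 to 22 members higher and 11 to 15 lower in vehicle, 17 to 24 and 11 to 14 in dexamethasone, 9 to 15 and 9 to 16 in RU486, 7 to 13 and 8 to 12 in all 3, and 0 to 1 for each dexamethasone comparison of control cells and for dexamethasone against vehicle in GRα cells. With 1 GRα RU486 array left, that array was assumed to vary like the other groups. Differences near 0 that were never called changed sign: FAT3 (-0.01436 after quantile normalization again, -0.01744 after median centring, -0.06689 with array weights, and -0.07816 to 0.06661 leaving out arrays), CELSR1 (-0.01407 after quantile normalization again, and -0.03516 to 0.09678) and DCHS2 (-0.008198 with array weights, and -0.02724 to 0.1102). The cause of these changes was not tested.

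Replicate letters were not taken as pairing. Over both lines, deviations of same-lettered arrays correlated between -0.257 and 0.319, 4 of 40 pairs over 0.1, and those of other letters in 15 of 80. Within control cells, vehicle and dexamethasone arrays of letters A, B and C correlated at 0.319, 0.143 and -0.0253. Vehicle and RU486 arrays did so at 0.193, 0.122 and 0.0228. Other-lettered control pairs ran from -0.36 to 0.27. Whether the control arrays were paired was not tested. With the replicate block, PCDH20 kept its dexamethasone against RU486 call in control cells (0.40, adjusted p = 0.0372), and CDH5 lost its call in vehicle (0.28, adjusted p = 0.0553). Only 2 or 3 arrays in a group, 1 line per genotype and, for 18 members, signals in the lowest 25% of the array limit what can be read from these values.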
